A study of Mus musculus with 6 samples.

Results

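A set of 10 connective tissue genes was followed in adrenal medulla after cardiac pressure overload: the small leucine-rich proteoglycan genes Dcn, Lum and Bgn, the matrix protein genes Dpt, Fn1, Sparc, Mgp and Fbln1, and the platelet-derived growth factor (PDGF) receptor genes Pdgfra and Pdgfrb. They are 10 of the 18193 genes with a probe set of their own on the array. All probe sets carrying 1 of these 10 symbols as their single symbol in the platform annotation were taken, which gave 21 of the 45101 probe sets of the array, and no probe set with several symbols held any of them. Medulla had been dissected 8 weeks after transverse aortic constriction (TAC, surgery that narrows the aortic arch so that the left ventricle pumps against a higher pressure) or following sham surgery, in 3 male mice per group, of the strain labelled C57/Bl6. Each Affymetrix 3′ expression array of the mouse genome read the medullae of 1 animal, and no age, genotype or further treatment is given in the labels. Markers of the labelled tissue were strongly present: the 11 measured chromaffin cell genes averaged log2 12.45 to 13.30 after TAC and 12.51 to 13.06 after sham.

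Small leucine-rich proteoglycans are secreted by fibroblasts and bind collagen fibrils, whose spacing and thickness they regulate. Decorin and biglycan carry chondroitin or dermatan sulphate chains, and lumican carries keratan sulphate. Fibroblasts of most organs carry PDGF receptor alpha, whereas PDGF receptor beta is found mainly on pericytes, vascular smooth muscle cells and some fibroblasts. In the adrenal medulla these cells lie in thin septa and around the sinusoids between chromaffin cells, and they are a minor part of the tissue. In such bulk tissue, fewer cells of a type and less RNA per cell cannot be told apart.

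Of the 8 measurable genes, 6 lay lower after TAC and 2 lay higher, and none passed the test across all probe sets. The 5 largest differences relative to their error were those of Sparc, 2.28-fold lower on 1 of its probe sets, Dpt, 2.15-fold lower, Dcn, 5.20-fold lower, Mgp, 2.26-fold lower, and Pdgfrb, 1.75-fold higher. Of the 21 probe sets, 12 from 8 genes reached log2 4 on at least 3 of the 6 arrays and were tested, and 9 did not. In limma 0 of these 12 and 0% of all 18188 tested probe sets had an adjusted p under 0.05. At an unadjusted p under 0.05, 4 of the 12 were lower after TAC, against 2.29% of all tested probe sets, and 1 was higher, against 4.65%. The groups did not overlap for 4 of the 12 on the lower side, against 4.01% of all, and for 1 on the higher side, against 9.01%. The median difference over the 8 genes was -0.83 on the log2 scale, 75% of them being lower, while the median over all 10181 genes was 0.09, with 41.3% lower. Probe sets of 1 gene share their transcript and all share the same 6 arrays, so these counts are not independent observations. The genes were also chosen with earlier results of the same arrays known, and the counts describe them without testing them as a group.

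Array quality varied within each group and bears on all values given here. The log2 difference between the 3′ and the 5′ control probe set of Gapdh, which is larger where transcripts are shortened, was 4.71, 3.67 and 3.98 in TAC 1, 2 and 3, against 5.15, 3.08 and 2.88 in sham 1, 2 and 3. Its mean differed between the groups by 0.42 (exact 2-sided permutation test, p = 0.6, where the smallest possible value is 0.1). That value depended on single arrays: it was 1.14 without sham 1, 0.64 without TAC 2, 0.12 without TAC 1, 0.11 without sham 2 and 0.0045 without sham 3. The median tested probe set was lowest in TAC 1 (6.50) among TAC arrays and in sham 1 (6.31) among sham arrays. Sham 1 was the lowest sham array for 11 of the 12 tested connective tissue probe sets, against 62.2% of all tested probe sets, and TAC 1 the lowest TAC array for 9 of the 12, against 49.5%. The part of RNA integrity in the differences was not tested beyond the values given beside them. Signal of the steroid-producing cortex, the tissue around the medulla, also varied, with a mean over 7 measured marker genes of 6.77 to 9.65 after TAC and 6.81 to 10.94 after sham.

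**Figure D1:**
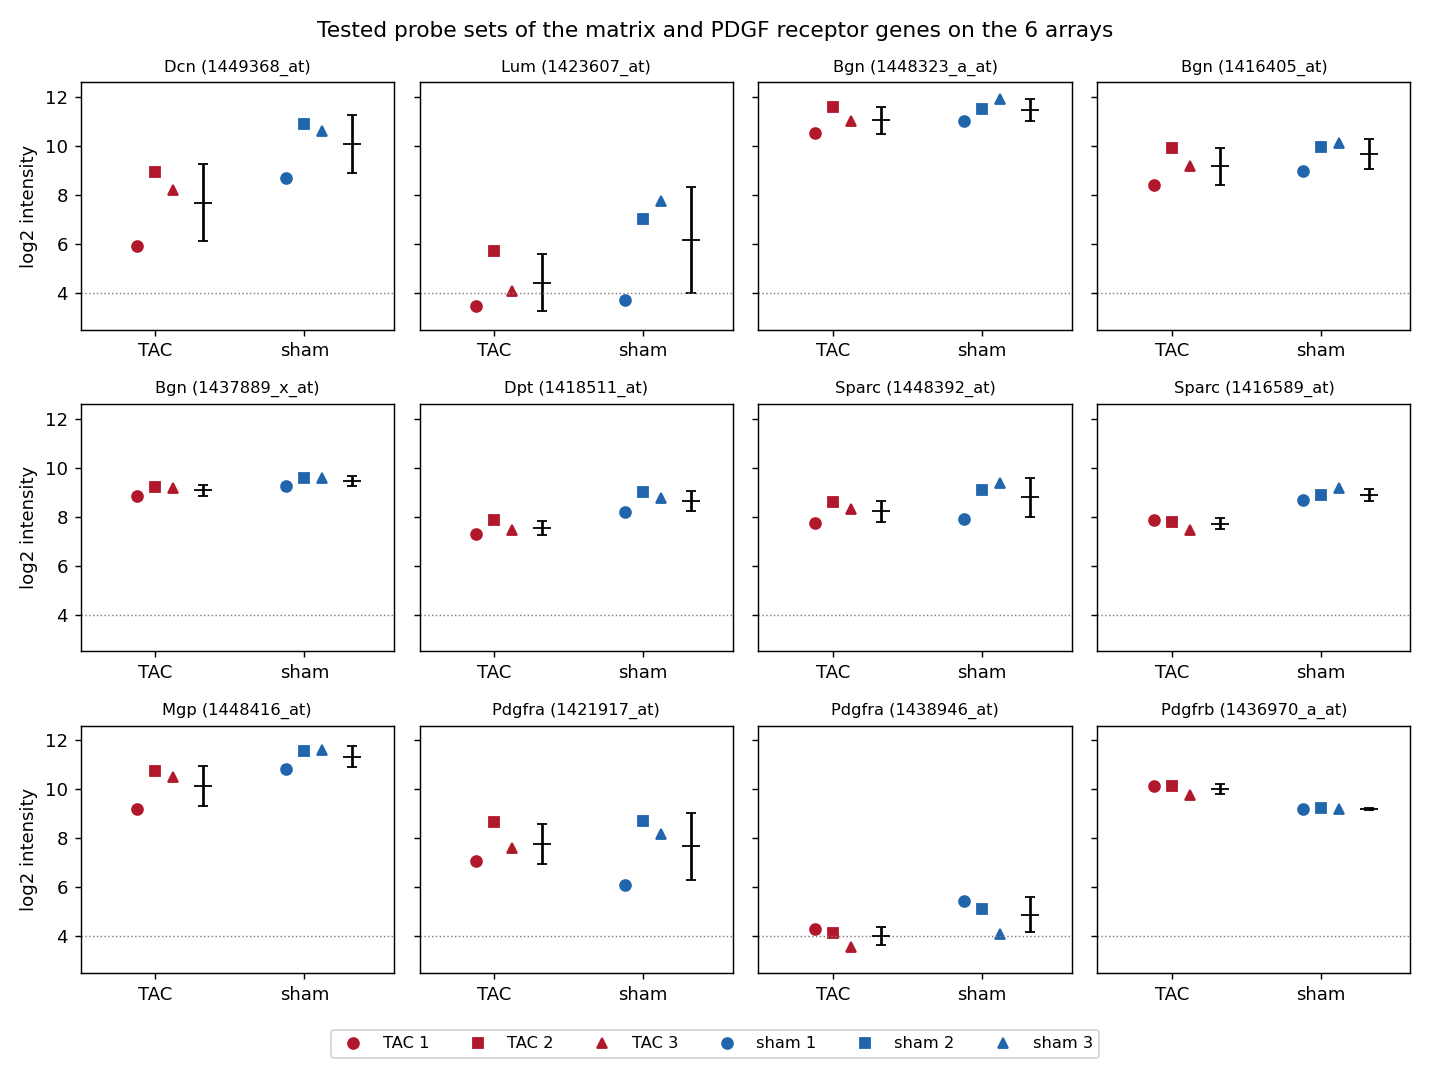
Log2 intensity of each tested probe set (1 panel each) on the 3 TAC arrays (red) and the 3 sham arrays (blue), with the mean and SD of each group in black and a dotted line at the log2 4 filter. The groups do not overlap for Dpt, Mgp, 1 probe set each of Sparc and Bgn, and Pdgfrb, and sham 1 (blue circle) is the lowest sham array in all panels but 1 of Pdgfra.

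Promoters are shown for Dpt, Sparc and Bgn, because each had a tested probe set whose TAC values all lay below the sham values. Each also has an entry in the RefSeq promoter table (assembly GRCm38.p6), which holds 5 of the 10 genes. Each window runs from 250 bases before to 50 bases after the annotated start, 5′ to 3′ on the strand of the gene. Dpt lies at chr1:164796413-164796712 on the plus strand, Sparc at chr11:55420031-55420330 on the minus strand and Bgn at chrX:73483351-73483650 on the plus strand. Capitals mark each E-box (CANNTG, bound by basic helix-loop-helix factors) and each TATA box (TATAAA), searched on both strands.
Dpt promoter: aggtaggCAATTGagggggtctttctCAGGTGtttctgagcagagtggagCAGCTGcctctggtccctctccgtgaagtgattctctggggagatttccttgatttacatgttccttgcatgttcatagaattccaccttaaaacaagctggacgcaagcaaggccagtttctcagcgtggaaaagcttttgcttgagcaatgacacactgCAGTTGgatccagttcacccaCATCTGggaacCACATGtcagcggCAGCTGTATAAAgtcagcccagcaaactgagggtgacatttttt
Sparc promoter: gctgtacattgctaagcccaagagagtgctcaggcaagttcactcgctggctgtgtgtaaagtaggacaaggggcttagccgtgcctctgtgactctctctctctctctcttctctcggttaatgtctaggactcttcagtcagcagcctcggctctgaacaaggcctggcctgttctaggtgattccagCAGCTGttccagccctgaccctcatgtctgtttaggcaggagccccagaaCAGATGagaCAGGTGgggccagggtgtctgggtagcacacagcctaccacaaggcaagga
Bgn promoter: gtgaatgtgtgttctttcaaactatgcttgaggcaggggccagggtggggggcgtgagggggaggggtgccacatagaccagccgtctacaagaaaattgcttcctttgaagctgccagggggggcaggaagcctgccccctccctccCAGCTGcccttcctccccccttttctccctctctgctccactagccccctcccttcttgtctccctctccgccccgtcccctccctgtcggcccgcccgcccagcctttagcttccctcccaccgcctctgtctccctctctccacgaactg

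The Dpt window held 7 E-boxes and 1 TATA box, which begins at base 263 of the window, directly after the last E-box and 13 bases into the transcript as counted from the annotated start. The Sparc window held 3 E-boxes and no TATA box, with the last E-box spanning the annotated start. The Bgn window held 1 E-box and no TATA box. Of 32851 promoter windows of the same length, 72.3% held an E-box and 13.6% a TATA box. The SMAD element CAGAC, in the form GTCTG, was found at 2 places of the Sparc window and in neither other window, against 49.6% of all windows. The CCAAT box (CCAAT) and the AP-1 site (TGANTCA), in 37.4% and 7.8% of all windows, were in none of the 3 windows. A match is only a match of letters and says nothing about binding in these samples.

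Decorin, the proteoglycan that coats collagen fibrils and binds growth factors such as TGF-beta, had the largest difference in size. Its main probe set (1449368_at) read 5.93, 8.93 and 8.22 in TAC 1, 2 and 3, against 8.71, 10.90 and 10.61 in sham 1, 2 and 3. TAC 1 was far below the other arrays, and TAC 2 lay above sham 1, so the groups overlapped. The means were 7.69 ± 1.57 after TAC and 10.07 ± 1.19 after sham (SD, n = 3 each). The difference was -2.38 ± 0.94 (SE; 95% interval -4.66 to -0.095; limma adjusted p = 0.706). Without TAC 1 it was -1.49, and without sham 1 it was -3.06. A second Dcn probe set (1441506_at) reached log2 4 on 1 array and was not tested.

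Lumican, a proteoglycan of the same family with keratan sulphate chains, was near the lower end of the measurable range. It read 3.46, 5.71 and 4.09 in TAC 1, 2 and 3, against 3.71, 7.02 and 7.76 in sham 1, 2 and 3. Both arrays with the largest Gapdh difference in their group lay below log2 4, and only sham 2 and sham 3 were above the highest TAC value. The difference was -1.74 ± 1.16 (SE; 95% interval -4.57 to 1.08; limma adjusted p = 0.906), and with values under log2 4 set to 4 it was -1.66. It was -0.95 without sham 3 and -2.97 without sham 1.

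Biglycan, the closest relative of decorin among the 3 proteoglycans, was read by 3 tested probe sets that pointed the same way with small differences. The brightest (1448323_a_at, whose suffix marks probes shared by several transcripts of 1 gene) read 10.52, 11.60 and 11.03 in TAC 1, 2 and 3, against 11.01, 11.52 and 11.92 in sham 1, 2 and 3. The groups overlapped, and the difference was -0.44 ± 0.38 (SE; 95% interval -1.37 to 0.50; limma adjusted p = 0.952). With TAC 1 or sham 3 left out it was -0.17 or -0.22, and with TAC 2 or sham 1 left out it was -0.71 or -0.67. The others differed by -0.51 ± 0.50 (1416405_at, and -0.13 to -0.89 with 1 array left out) and -0.38 ± 0.24 (1437889_x_at, whose suffix marks cross-hybridising probes). For the last of these, the highest TAC array, at 9.20, lay just under the lowest sham array, at 9.23. Within each array, Dcn minus Bgn was -4.59, -2.66 and -2.81 in TAC 1, 2 and 3, against -2.30, -0.63 and -1.32 in sham 1, 2 and 3. That is a difference of -1.94 with no overlap (exact 2-sided permutation test, p = 0.1, the smallest possible value, and 0.167 after Benjamini-Hochberg adjustment over 5 such pairs of genes, all chosen after their values were seen).

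Dermatopontin (Dpt), a small matrix protein that binds decorin and speeds collagen fibril assembly, read 7.27, 7.85 and 7.46 in TAC 1, 2 and 3, against 8.17, 8.99 and 8.74 in sham 1, 2 and 3. All TAC arrays lay below all sham arrays. The means were 7.53 ± 0.29 after TAC and 8.63 ± 0.42 after sham (SD, n = 3 each), a difference of -1.11 ± 0.31 (SE; 95% interval -1.86 to -0.35; limma adjusted p = 0.527). It kept its sign in all 18 alternative settings, between -1.38 and -0.93, and stayed at an unadjusted p under 0.05 in 17 of them.

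Sparc, which encodes the collagen-binding matricellular protein osteonectin, gave unequal readings from its probe sets. The brightest (1448392_at) read 7.76, 8.60 and 8.31 in TAC 1, 2 and 3, against 7.88, 9.09 and 9.38 in sham 1, 2 and 3, a difference of -0.56 ± 0.47 (SE; 95% interval -1.69 to 0.57; limma adjusted p = 0.946). It was -0.26 without sham 3, -0.33 without TAC 1 and -1.01 without sham 1. Here sham 1 lay among the TAC arrays. The other (1416589_at) read 7.88, 7.80 and 7.46 in TAC 1, 2 and 3, against 8.67, 8.87 and 9.15 in sham 1, 2 and 3. All its TAC arrays were below all sham arrays, and the difference was -1.19 ± 0.25 (SE; 95% interval -1.80 to -0.57; limma adjusted p = 0.420, the smallest among the 12 probe sets). It had an unadjusted p under 0.05 in 17 of 17 alternatives, whereas the brightest had one in 4 of 18, including the mean of both tested probe sets. The remaining Sparc probe set (1458204_at) reached log2 4 on 1 array only.

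Mgp, which encodes matrix Gla protein, an inhibitor of calcification, read 9.21, 10.73 and 10.51 in TAC 1, 2 and 3, against 10.82, 11.56 and 11.59 in sham 1, 2 and 3. The TAC arrays all lay below the sham arrays, though TAC 2 and sham 1 were close. The means were 10.15 ± 0.82 after TAC and 11.33 ± 0.44 after sham (SD, n = 3 each), a difference of -1.17 ± 0.48 (SE; 95% interval -2.33 to -0.016; limma adjusted p = 0.715). Without TAC 1 the difference was -0.71.

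Fibronectin and fibulin-1 were not measurable on these arrays. The 2 probe sets of Fn1, whose product links integrins on cells to the matrix, lay between 2.58 and 3.12 on all 6 arrays, below the log2 4 filter. The 3 probe sets of Fbln1, a matrix glycoprotein that binds fibronectin, lay between 1.95 and 4.22, and only 1451119_a_at in sham 3 exceeded log2 4. These genes therefore have no test. The position of these probe sets on the transcripts was not analysed here.

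**Figure D2:**
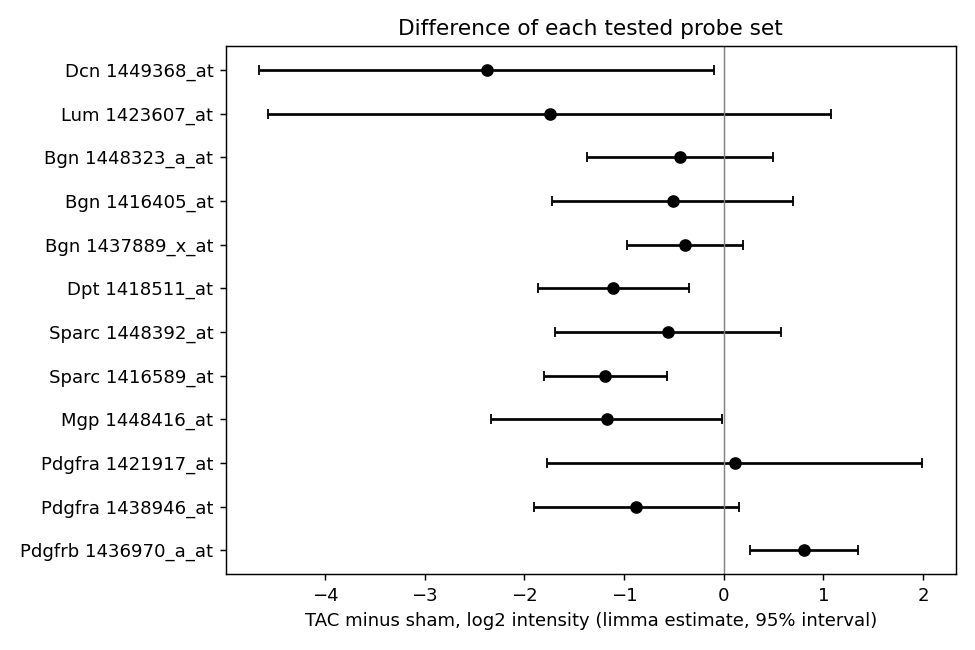
Difference of TAC minus sham on the log2 intensity scale (x axis) for each tested probe set (y axis), as limma estimates with 95% intervals. The intervals of Dcn, Dpt, Mgp, Sparc 1416589_at and Pdgfrb do not include 0 before adjustment, and that of Lum runs from -4.57 to 1.08.

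Of the PDGF receptors, Pdgfrb lay higher after TAC without overlap, and Pdgfra had no clear direction. Pdgfrb, the receptor gene of pericytes and other mural cells, read 10.12, 10.13 and 9.77 in TAC 1, 2 and 3, against 9.18, 9.22 and 9.18 in sham 1, 2 and 3. All TAC arrays lay above all sham arrays, and the 3 sham arrays were nearly equal. The means were 10.005 ± 0.21 after TAC and 9.20 ± 0.02 after sham (SD, n = 3 each), a difference of 0.81 ± 0.22 (SE; 95% interval 0.27 to 1.35; limma adjusted p = 0.514). In the 18 alternatives it was higher after TAC by 0.60 to 0.93, and in 16 it had an unadjusted p under 0.05. As for Dpt, leaving out or weighting arrays could not turn the sign, since the groups did not overlap. The other Pdgfrb probe set (1417148_at) lay near log2 3 on all arrays, below the filter, so the result rests on 1 probe set (1436970_a_at).

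Pdgfra, the receptor gene typical of fibroblasts, was read by a brighter and a dimmer probe set of opposite sign. The brighter (1421917_at) read 7.06, 8.67 and 7.61 in TAC 1, 2 and 3, against 6.11, 8.72 and 8.18 in sham 1, 2 and 3, a difference of 0.11 ± 0.77 (SE; 95% interval -1.77 to 1.99; limma adjusted p = 0.998). The TAC values lay within the range of the sham values, and sham 1 was again the lowest array. The dimmer (1438946_at) read 4.29, 4.13 and 3.58 in TAC 1, 2 and 3, against 5.44, 5.10 and 4.09 in sham 1, 2 and 3, a difference of -0.88 ± 0.42 (SE; 95% interval -1.90 to 0.15; limma adjusted p = 0.787). The remaining one (1421916_at) stayed near log2 2. The within-array difference of Pdgfrb minus Pdgfra averaged 2.23 after TAC and 1.53 after sham, with overlap between the groups (exact 2-sided permutation test, p = 0.5, and 0.5 after adjustment over the same 5 pairs). The test did not separate the differences of the 2 receptor genes.

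The 6 matrix genes varied in parallel from array to array, and Pdgfrb did so less. Over the 6 arrays, Pearson's r between the main probe sets of Dcn, Lum, Bgn, Dpt, Sparc and Mgp was 0.76 to 0.99 in the 15 pairs, and 0.74 to 0.98 for the deviations from the group means. Pdgfra correlated with these 6 genes at 0.41 to 0.79, and at 0.77 to 0.99 for the deviations. Pdgfrb correlated with the other 7 genes at -0.82 to 0.10, and at -0.29 to 0.20 for the deviations. These points share RNA integrity, amplification and scaling of the arrays. The deviations of Pdgfrb came almost wholly from the TAC arrays, since its SD was 0.21 there and 0.02 in sham. The genes outside this group whose profile over the 6 arrays was most like that of Dcn, among 9812, were Nedd8, Tspan13, Snrpd3 and Vcp (r of 0.995, 0.992, 0.989 and 0.988). For Dpt they were Hmgb3, Erp44, Commd3 and Smim11 (r of 0.994, 0.993, 0.992 and 0.987), and for Pdgfrb they were Thra, Prkaca, Pik3r2 and Dennd3 (r of 0.995, 0.994, 0.992 and 0.984). None of these 12 is a matrix gene of the lists used here. They are the highest r of 9812 genes over only 6 arrays, so they describe profiles and do not show shared regulation.

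**Figure D3:**
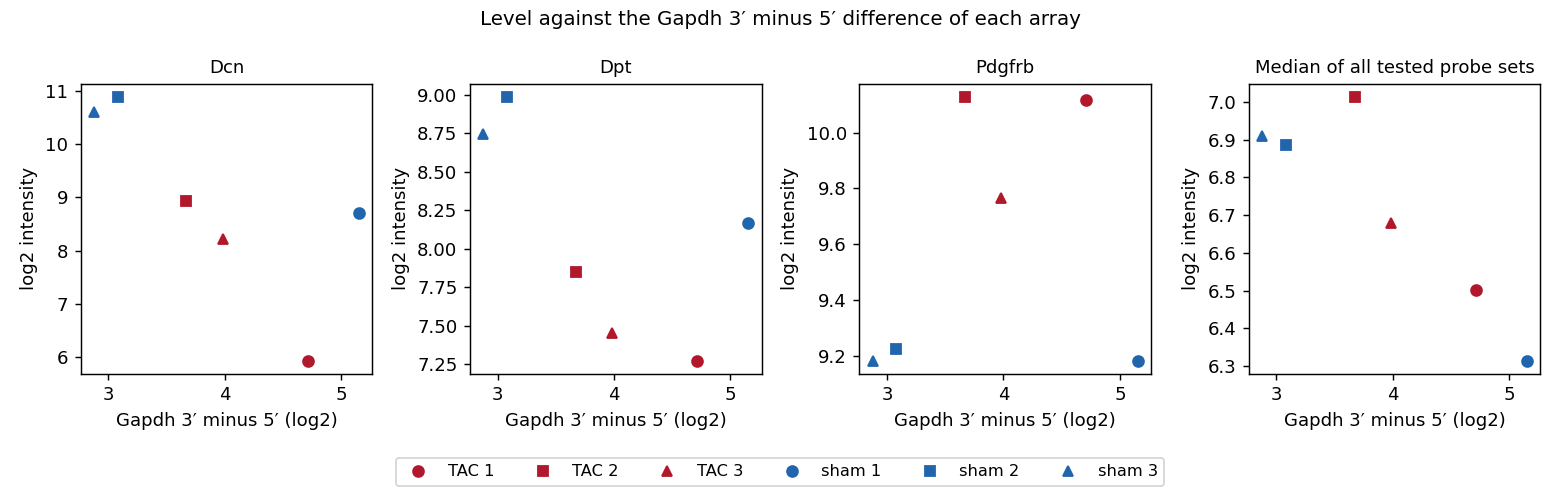
Log2 intensity of Dcn, Dpt and Pdgfrb and the median of all tested probe sets (y axes, each with its own scale) against the Gapdh 3′ minus 5′ difference of the array (x axis, log2), for TAC (red) and sham (blue) arrays. Within each group Dcn and Dpt are lowest on the array with the largest Gapdh difference, at 5.93 and 7.27 in TAC 1 and 8.71 and 8.17 in sham 1, while Pdgfrb stays at 9.18 to 9.22 in all sham arrays.

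The differences were also read separately within the arrays of larger and of smaller Gapdh difference. Among the 3 arrays with the larger Gapdh difference (TAC 1, TAC 3 and sham 1), TAC minus sham was -1.64 for Dcn, -0.80 for Dpt, -1.002 for Sparc 1416589_at, -0.96 for Mgp and 0.76 for Pdgfrb. Among the others (TAC 2, sham 2 and sham 3) it was -1.82 for Dcn, -1.02 for Dpt, -1.21 for Sparc 1416589_at, -0.85 for Mgp and 0.93 for Pdgfrb. For Dpt, Mgp, Sparc 1416589_at and Pdgfrb the sign was fixed by the lack of overlap between the groups. Dcn overlapped only through TAC 2 and sham 1, which fell in different sets, so its sign was fixed by this division too. Lum differed by 0.07 in the first set of arrays and by -1.68 in the second, and the brightest Sparc probe set by 0.15 and -0.63. The median over the 8 genes was -0.087 in the first set and -0.74 in the second, against 0.33 and 0.18 over all genes. Each set holds a single array of 1 group, and the groups were not matched for the Gapdh difference within it. In the first set sham 1 (5.15) lay above TAC 1 (4.71) and TAC 3 (3.98). In the second TAC 2 (3.67) lay above sham 2 (3.08) and sham 3 (2.88). With the Gapdh difference as a covariate of the limma fit, the differences were -1.86 for Dcn, -0.97 for Dpt, -1.14 for Sparc 1416589_at, -0.96 for Mgp and 0.81 for Pdgfrb. In the same fit Lum was at -1.02, the brightest Sparc probe set at -0.29, the Bgn probe sets at -0.26 (1448323_a_at), -0.25 (1416405_at) and -0.31 (1437889_x_at), and Pdgfra at 0.57 (1421917_at) and -1.05 (1438946_at).

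The other tested small leucine-rich proteoglycans had lower means after TAC, but only Aspn did so without overlap and none passed the test. Of 11 such genes on the array 4 were tested, and all 4 were lower after TAC, against 41.3% of all genes. The median difference was -0.56. Asporin (Aspn), a decorin relative that also binds collagen, read 5.81, 6.20 and 6.20 in TAC 1, 2 and 3, against 6.35, 7.22 and 7.18 in sham 1, 2 and 3, without overlap (difference -0.85 ± 0.32 SE, limma adjusted p = 0.688). Prelp differed by -0.93 ± 1.002, Fmod, the gene of fibromodulin, by -0.28 ± 0.33, and Ogn, the gene of osteoglycin, by -0.17 ± 0.62. The other Ogn probe set read -0.70. Omd, Podn, Ecm2, Epyc, Kera, Chad and Nyx stayed below the filter.

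Among 15 collagen chain genes, not all of them of fibril-forming collagens, 8 were lower and 7 higher, with a median of -0.21 and 0 past the threshold. Col3a1 (-1.67 ± 0.48 SE, limma adjusted p = 0.551) and Col1a2 (-1.40 ± 0.43 SE, adjusted p = 0.560) lay lower after TAC without overlap, and their other probe sets read -0.49 and -0.89. Without overlap, Col4a1 was also lower (-0.64 ± 0.32, other probe set -0.26) and Col6a2 was higher (0.76 ± 0.28, other probe set 0.24). In total 3 of the 15 were lower and 1 higher without overlap, against 4.01% and 9.01% of all tested probe sets. Of 18 further tested matrix protein genes 13 were lower (median -0.14, 0 past the threshold), with Nid1, a basement membrane linker gene, at -0.54 ± 0.34 and Smoc2 at -0.83 ± 0.58. Among enzymes that cleave the matrix and their inhibitors 6 of 9 were lower (median -0.38, 0 past the threshold). Adamts5, which encodes a proteoglycan-cleaving protease, read 6.08, 6.30 and 5.79 in TAC 1, 2 and 3, against 6.45, 7.10 and 6.86 in sham 1, 2 and 3 (difference -0.75 ± 0.28 SE, limma adjusted p = 0.682), and its second probe set read -1.15. Adamts1, another protease of that family, differed by -1.56 ± 0.73.

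The PDGF ligands and signalling genes were mixed in direction when read by 1 probe set a gene. Of 17 tested genes of the pathway 10 were higher and 7 lower (median 0.15, 0 past the threshold). Over all genes 41.3% were lower. The sign differed between tested probe sets for Rasa1 (0.72 and -1.97), Gab1 (0.15 and -0.86) and Grb2 (-0.17 and 0.30). It did so too for Pik3ca (0.46, -0.63, -0.13, -0.14 and 0.07). Pdgfa, the gene of a ligand of PDGF receptor alpha, read 8.34, 8.16 and 8.23 in TAC 1, 2 and 3, against 7.28, 7.38 and 7.56 in sham 1, 2 and 3. All TAC arrays were above all sham arrays, and the difference was 0.83 ± 0.21 (SE; limma adjusted p = 0.495). Pdgfc, which encodes another ligand of that receptor, differed by -0.51 ± 0.50 (adjusted p = 0.971). Pdgfb, the gene of the main ligand of PDGF receptor beta, lay at 2.61 to 3.06 after TAC and at 2.52 to 3.04 after sham, below the filter throughout, and Pdgfd, another ligand gene of that receptor, reached log2 4 on 2 sham arrays only. Cbl, which encodes a ubiquitin ligase that ends receptor signalling, differed by 0.76 ± 0.30 (adjusted p = 0.706).

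Receptors, activators and sugar-chain enzymes around the matrix were also mixed. Of 14 matrix receptor genes 9 were higher (median 0.09, 0 past the threshold). Cd44, the hyaluronan receptor gene, differed by -1.26 ± 0.52 (limma adjusted p = 0.717; other probe set -0.20). Itgb5, an integrin beta chain gene, differed by 0.54 ± 0.27, and its other probe sets read 0.24, -0.45 and 0.13. Of 13 TGF-beta pathway genes 8 were lower (median -0.04, 0 past the threshold), with the latent TGF-beta binding protein gene Ltbp3 at 0.50 ± 0.23 and the procollagen protease gene Bmp1 at 0.40 ± 0.41. Of 15 genes that build glycosaminoglycan chains 8 were higher (median 0.01, 0 past the threshold). B4galt7 (0.58 ± 0.28) and B3galt6 (0.58 ± 0.31), which encode enzymes of the linker that joins the chains to proteoglycan cores, had the smallest p-values of that list.

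Markers of the cells that could carry these transcripts were read beside them. Of 14 other fibroblast markers on the array 6 were tested and 4 of these were higher (median 0.06, 0 past the threshold). Their mean per array was 7.25 to 7.81 after TAC and 7.17 to 7.78 after sham. Cd34 had the largest difference of the 6, at -0.93 ± 1.05, and S100a4 differed by -0.075 ± 0.49. Thy1 differed by 0.23 ± 0.25, Col13a1 by 0.41 ± 0.38, Pdpn by 0.11 ± 0.22 and Vim by 0.018 ± 0.26 (other Vim probe sets -0.75 and 0.17), while Fap, Twist1, Twist2, Clec3b, Pi16, Dpp4 and Mfap5 were below log2 4 on all arrays. Tcf21 read 3.42, 3.84 and 3.85 in TAC 1, 2 and 3, against 3.73, 5.26 and 4.73 in sham 1, 2 and 3, so it reached log2 4 on 2 sham arrays only and was not tested. Of 7 tested smooth muscle and pericyte markers 5 were lower (median -0.16, 0 past the threshold), and their mean per array was 6.10 to 7.06 after TAC and 6.21 to 7.06 after sham. Rgs5, a pericyte marker, differed by -0.92 ± 0.39 (limma adjusted p = 0.733; other probe sets -0.04 and -3.02), opposite to Pdgfrb. Notch3, another mural cell marker, read 4.01, 4.61 and 5.25 in TAC 1, 2 and 3, and lay below log2 4 on all sham arrays. It passed the filter only through the TAC arrays, and it is counted among the 7. Its difference was 1.24 ± 0.38 (limma adjusted p = 0.560), in the same direction as Pdgfrb. Kcnj8 differed by -0.72 ± 0.69, Mcam by -0.65 ± 0.52, Tagln by -0.16 ± 0.75, Abcc9 by -0.010 ± 0.37 (other probe set -0.85) and Acta2 by 0.44 ± 0.36. Myh11, Cnn1, Des, Cspg4 and Anpep were below log2 4 on all arrays. With 0 genes past the threshold in any of these lists, the median was 0.01 over 6 endothelial, -0.28 over 6 macrophage, 0.54 over 3 capsule and stroma, 0.26 over 7 sustentacular and Schwann cell, -0.70 over 7 cortex and 0.20 over 11 chromaffin genes, and the 1 tested adipocyte gene, Fabp4, read -0.11. The 3 capsule and stroma genes were Dlk1 (0.69, other probe set 0.20), Ptch1 (0.54) and Nr2f2 (-0.12). The other Nr2f2 probe sets read -0.08, -1.67, -0.30 and -0.59, so this median gives no common direction. The part of cell number in the differences of the proteoglycans and of Pdgfrb was not tested.

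**Figure D4:**
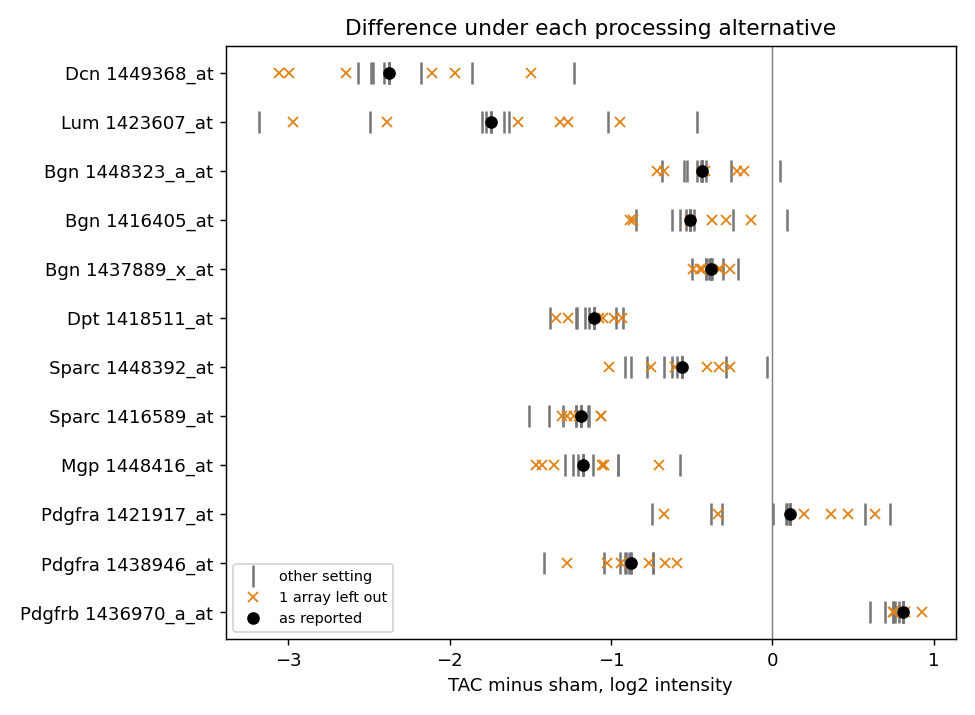
Difference of TAC minus sham (x axis, log2 intensity) for each tested probe set (y axis) as reported (black points), with 1 array left out (orange crosses) and under the other processing alternatives (grey bars). Dpt, Mgp, Dcn, Lum, both Sparc and the dimmer Pdgfra probe set stay below 0 and Pdgfrb stays above 0, while the brighter Pdgfra probe set runs from -0.75 to 0.73.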

How the data were processed

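The deposited table holds 1 linear intensity per probe set and array, already background-corrected. Per the submitters' processing notes the method was GCRMA, with version, options and build not given in the sources used here. RNA was amplified in 2 cycles, per the labels' protocols. Values were log2-transformed and otherwise used as deposited, and the 6 columns did not share 1 distribution. After removal of 64 array controls, 18188 probe sets that reached log2 4 on 3 or more arrays of either group were kept. The 2-sided test of TAC against sham used lmFit and eBayes of limma 3.58.1 (R 4.3.3) without covariates, with Benjamini-Hochberg adjustment over all of them and a threshold of 0.05. The alternatives tried were other scalings, filters and floors, array weights, a Gapdh covariate, a replicate block, averaged probe sets and arrays left out. The procedure was tested on simulated data with noise drawn independently for each probe set. Such noise lacks the variation that the probe sets of an array share here, so this did not check the p-values of these arrays.

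The probe set with the highest mean stood for a gene. Gene names came from GEO's platform annotation, and the symbols of all 10 genes were unchanged in a RefSeq gene table. From each of 8 pathway lists the 2 genes with the smallest p were named, with all PDGF ligands and all tested small leucine-rich proteoglycans. All tested fibroblast, smooth muscle and pericyte markers, and Col4a1 and Col6a2, were added after their values were seen. Genes and lists were chosen with earlier results of these data known. The number of arrays limits the precision.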

Additional observations from a re-analysis of the deposited data

How the results depend on the processing

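Changing the scaling, the filter, the floor or the covariates, or leaving out arrays, gave 0 probe sets with an adjusted p under 0.05, and 0 among those described. Array weights were the exception, with 6698 probe sets and 10 of the 12. The weights were 6.11 for TAC 3, 2.96 for sham 3 and 2.73 for sham 2, and 0.14 to 0.40 for the others. They were estimated from the same 6 arrays and made the TAC mean rest mostly on TAC 3, so these counts are not separate evidence of a difference. The count of the 12 that were lower at an unadjusted p under 0.05, 4 as reported, was 2 with no filter (of 21), 11 with array weights and 2 when sham 3 and TAC 1, which had the highest cortex marker means of their groups (10.94 and 9.65), were both left out. With 1 array left out it was 2 to 6: 2 without TAC 1, TAC 3 or sham 2, and 6 without sham 1. Dcn and Mgp were lost without TAC 1, TAC 3, sham 2 or sham 3. The median over the 8 genes was -0.25 without sham 3 and TAC 1 together, and -0.52 without TAC 1. The count over all probe sets at an unadjusted p under 0.05, 1263 as reported, was 2110 with no filter, 8749 with array weights, 3843 with the Gapdh covariate, 2507 without sham 1 and TAC 1 together, 640 without sham 3 and TAC 1, 644 with probe sets averaged per gene, and 641 to 2429 with 1 array left out. The share of these that were higher after TAC was 67.0% as reported, 50.7% with arrays centred on the median, 56.4% after quantile normalization, 43.4% after cyclic loess and 38.9% without sham 1. With the replicate number as a block, 3005 probe sets had an unadjusted p under 0.05, 5 of the 12 were lower at that level and 0 passed adjustment. The labels state no pairing, and deviations from the group means correlated at 0.76, 0.78 and -0.22 between arrays numbered 1, 2 and 3, so not every array matched its own number best. The brighter Pdgfra probe set turned to -0.75 with array weights and -0.31 without sham 1 and TAC 1, and it ran from -0.67 to 0.64 with 1 array left out. The mean of the brighter and the dimmer Pdgfra probe set was -0.38. Of Bgn, 2 probe sets turned to 0.087 (1416405_at) and 0.044 (1448323_a_at) without sham 3 and TAC 1. The causes were not tested.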
